A study of Arabidopsis thaliana with 12 samples.

Results

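A set of 112 Arabidopsis thaliana genes whose transcripts were much lower after 3 h of light than in darkness, in the wild type and in a line with raised miR396a, was described. The members were selected on measured values. Each had a mean of at least 5 FPKM (fragments per kilobase of transcript scaled to the number of mapped fragments) in both dark groups, and a light mean of at most 0.25 times the dark mean in each genotype. Of the 11417 genes found in any of the authors' 6 pairwise tables, 6223 had means for all 4 groups and 2635 of these reached the dark minimum in both genotypes. Within those 2635 genes, 403 met the light limit in Col-0, 257 met it in 35S:miR396a and 118 met it in both, which was 29.3% of the Col-0 genes and 45.9% of the 35S:miR396a genes. The rule names 8 genes to leave out, and 6 of them were among the 118 (PORA, XTH15, IAA19, IAA6, PHYA and XTH19), which left the 112 members. The mirrored rule, at least 4-fold higher after light in both genotypes, was met by 64 genes.

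The samples were 12 RNA-seq libraries in 4 groups of 3, which the labels call biological replicates. Col-0 (ecotype Columbia, the wild type) and 35S:miR396a, a transgenic line that makes the microRNA miR396a from the strong viral 35S promoter, were each kept in darkness throughout or given 3 h of light at the end. All seedlings had spent 4 days in darkness on MS medium with 1% sucrose, so sugar was supplied to every group. The labels name the tissue as hypocotyl and do not say how many independent lines of 35S:miR396a were used.

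A seedling that germinates below ground elongates its hypocotyl, keeps its cotyledons closed and does not green. In darkness, phytochrome-interacting factors (PIFs) are stable and, with auxin, brassinosteroid and gibberellin, keep genes of cell elongation active, among them genes for enzymes that loosen the cell wall. Light activates phytochromes and cryptochromes, which remove PIFs and free photomorphogenic factors, and the programme of growth in darkness is switched off as greening starts.

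Only the authors' group means were at hand, so no SD stands beside any mean. No difference could be set against the spread between libraries, and no test was made. The light response chose the members and is given as a description. In all 112 members the light mean was also listed as lower in the authors' deposited table of each genotype, where a gene is listed if its fold passes 2 and its q-value is under 0.001. Among the 6223 genes with 4 means, 36.1% were listed as lower after light in Col-0, 30.1% in 35S:miR396a and 13.8% in both, and nothing is read from the members' count because the rule used these contrasts. Because the samples are bulk tissue, fewer cells of a type and less RNA per cell cannot be told apart.

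The median member had 31.7 FPKM in dark Col-0 and 3.26 after light, and 28.1 and 3.78 in 35S:miR396a. The level left after light had a median of 11.2% of the dark level in Col-0 (0% to 24.5%) and 14.8% in 35S:miR396a (0% to 25%). At most 5% was left for 22 members in Col-0 and for 6 in 35S:miR396a, and at most 10% for 46 and 32. As log2 of light over dark, the members' medians were -3.15 in Col-0 and -2.75 in 35S:miR396a, where the 2633 genes above the dark minimum with no mean at 0 had medians of -0.52 and -0.23. Added up, the members made 19179 FPKM in dark Col-0 and 2926 after light, and 18254 and 2763 in 35S:miR396a. The carbonic anhydrase gene CA2 and the gibberellin-regulated gene GASA4 alone gave 38.3% of the dark sum of Col-0 and 47.4% of that of the line.

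**Figure D1:**
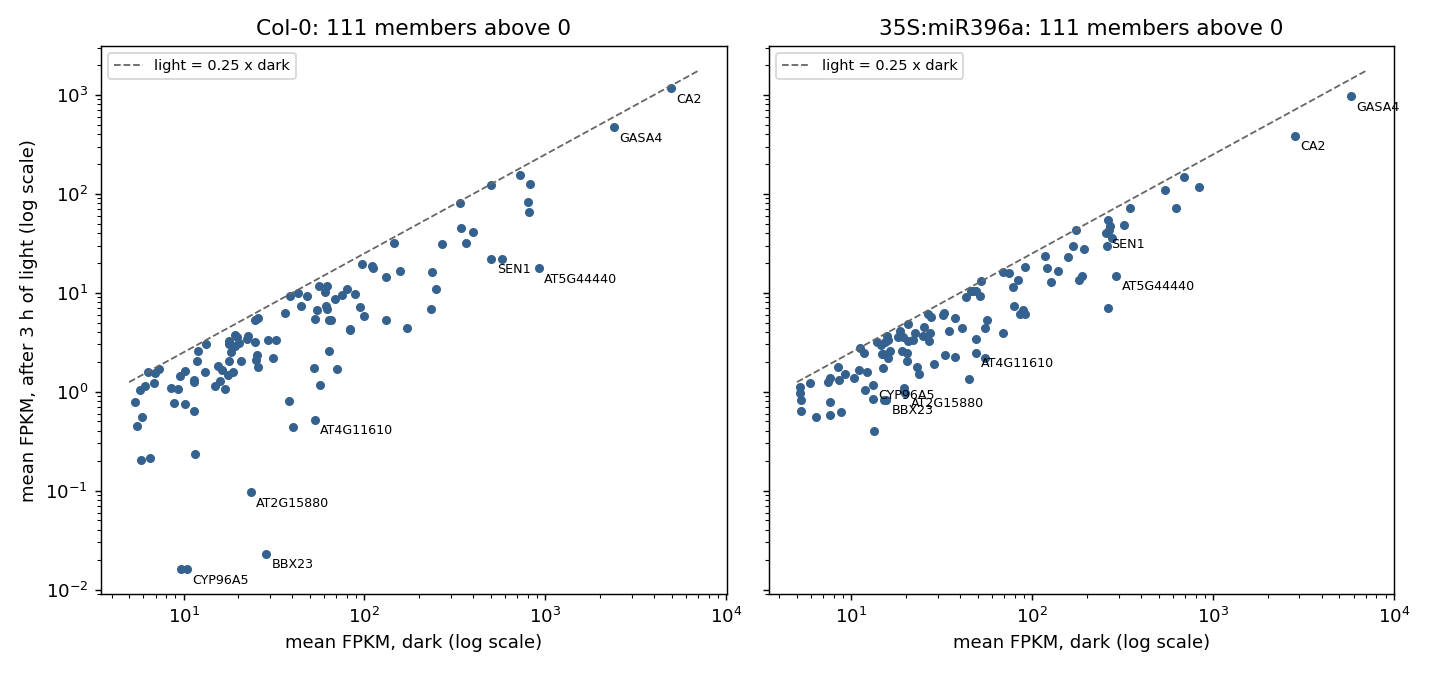
Mean FPKM after light against mean FPKM in the dark for the members in Col-0 (left) and 35S:miR396a (right), both axes on a log scale; each point is 1 gene and the dashed line marks the limit of 0.25. CML30, at 0 in both light groups, cannot be drawn on a log axis. In Col-0, BBX23, CYP96A5 and AT1G20790 lay at 0.016 to 0.023 FPKM after light, while the lowest point of 35S:miR396a is AT1G20790 at 0.403 FPKM.

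The limits cut through a continuum. Just inside the light limit stood the pectin methylesterase inhibitor gene AT1G62770, with 25% left in 35S:miR396a, the lipid-transfer gene AT5G46900 with 24.8% and the Dof-type factor gene AT1G69570 with 24.6%. Just outside stood the leucine-rich repeat gene AT5G12940 with 25.6%, the transporter gene UMAMIT36 with 25.6% and FHY1 with 25.8%. At the dark minimum, HSD5, AT5G22310 and MDP40 were inside with their lower dark mean at 5.17, 5.23 and 5.26 FPKM, and AT5G39240, AT3G04184 and AT5G37950 were outside at 4.90, 4.80 and 4.66 FPKM.

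Promoter sequence was not used to choose the members. Windows of 250 bases before to 50 after the annotated gene start, on TAIR10.1, were read for all 112 members and searched on both strands for 9 motifs. The G-box, CACGTG, is a core to which PIFs and the light-promoted factor HY5 are known to bind, and the PBE-box, CACATG or CATGTG on the other strand, is a second core known for PIFs. A G-box was found in 18 members, or 16.1%, beside 11.6% of 2614 genes above the dark minimum, 10.9% of the 64 genes raised by light and 7.68% of 27443 protein-coding genes. A PBE-box was found in 29 members, or 25.9%, beside 15.4%, 29.7% and 12.9% in the same sets. The order of members and raised genes depended on the window: with 1000 bases before the start, a window chosen after seeing the data, a PBE-box stood in 64.3% of members and 46.9% of the raised genes. In all, 40 members had either core and 7 had both. The share with either core was 35.7% of members, 24.9% above the dark minimum, 35.9% of the raised genes and 19.3% of protein-coding genes.

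The 250 bases before the gene start are shown for 8 members, 7 because they carry 1 to 3 of these cores in genes of light signalling, auxin response, the wall and oil bodies that are described below, and the last, BBX23, as a strongly lowered gene with no match. Capitals mark each G-box and PBE-box; sequences are from the RefSeq TAIR10.1 reference, 5′ to 3′ along the gene's own strand.
FHL (chr5:437115-437364, plus strand): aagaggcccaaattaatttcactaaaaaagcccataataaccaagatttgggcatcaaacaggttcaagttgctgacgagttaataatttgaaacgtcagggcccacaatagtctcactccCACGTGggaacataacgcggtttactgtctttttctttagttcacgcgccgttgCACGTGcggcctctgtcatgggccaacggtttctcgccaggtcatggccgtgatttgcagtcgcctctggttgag
PAR2 (chr3:21760391-21760640, minus strand): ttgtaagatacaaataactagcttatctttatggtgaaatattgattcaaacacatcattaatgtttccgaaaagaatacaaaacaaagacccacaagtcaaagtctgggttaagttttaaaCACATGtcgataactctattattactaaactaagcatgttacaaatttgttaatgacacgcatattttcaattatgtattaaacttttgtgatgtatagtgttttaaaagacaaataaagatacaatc
IAA20 (chr2:19307464-19307713, plus strand): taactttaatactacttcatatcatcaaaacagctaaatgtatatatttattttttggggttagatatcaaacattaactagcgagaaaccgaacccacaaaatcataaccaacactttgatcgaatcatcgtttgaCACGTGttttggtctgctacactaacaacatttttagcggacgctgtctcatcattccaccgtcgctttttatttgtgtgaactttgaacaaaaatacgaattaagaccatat
GH9B1 (chr1:26663338-26663587, minus strand): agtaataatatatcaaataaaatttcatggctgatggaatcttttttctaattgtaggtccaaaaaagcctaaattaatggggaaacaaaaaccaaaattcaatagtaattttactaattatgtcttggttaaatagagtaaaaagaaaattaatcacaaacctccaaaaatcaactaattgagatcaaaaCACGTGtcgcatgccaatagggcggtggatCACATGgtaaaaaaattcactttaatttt
LRX2 (chr1:23112683-23112932, plus strand): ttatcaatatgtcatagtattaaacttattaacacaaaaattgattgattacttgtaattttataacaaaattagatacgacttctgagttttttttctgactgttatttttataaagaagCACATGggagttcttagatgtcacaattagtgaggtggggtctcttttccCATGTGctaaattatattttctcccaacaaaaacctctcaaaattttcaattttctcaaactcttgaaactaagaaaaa
AT5G05965 (chr5:1792635-1792884, minus strand): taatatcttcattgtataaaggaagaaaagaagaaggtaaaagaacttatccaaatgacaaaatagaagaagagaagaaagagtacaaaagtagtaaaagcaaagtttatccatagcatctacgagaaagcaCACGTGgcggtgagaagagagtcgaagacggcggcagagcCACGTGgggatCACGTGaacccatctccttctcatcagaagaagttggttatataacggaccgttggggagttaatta
OLEO3 (chr5:20819818-20820067, plus strand): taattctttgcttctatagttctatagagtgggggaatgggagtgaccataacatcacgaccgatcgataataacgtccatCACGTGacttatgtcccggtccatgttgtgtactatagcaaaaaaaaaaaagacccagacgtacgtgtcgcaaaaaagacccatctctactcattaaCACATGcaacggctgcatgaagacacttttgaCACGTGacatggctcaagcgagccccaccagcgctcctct
BBX23 (chr4:6369951-6370200, minus strand): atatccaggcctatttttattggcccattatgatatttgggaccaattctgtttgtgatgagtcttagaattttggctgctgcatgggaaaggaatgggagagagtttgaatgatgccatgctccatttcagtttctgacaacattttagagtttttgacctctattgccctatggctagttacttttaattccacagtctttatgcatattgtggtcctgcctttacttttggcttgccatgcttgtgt

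In FHL the G-boxes began 129 and 75 bases before the gene start. AT5G05965 held 3 G-boxes within 118 bases of the start, the nearer pair at 78 and 67 bases. In GH9B1 a G-box at 59 bases was followed by a PBE-box at 29 bases, and in OLEO3 a PBE-box at 72 bases stood between G-boxes at 169 and 40 bases. LRX2 had only PBE-boxes, at 129 and 79 bases, on opposite strands. The absence of a match in BBX23 says only that these letters are not in its window.

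The other motifs were no more frequent in members than in the genes above the dark minimum, except the brassinosteroid response core CGTGCG. The auxin response elements TGTCTC and TGTCGG stood in 8.93% and 2.68% of members, beside 12.7% and 5.47% above the dark minimum and 14.2% and 5.12% of protein-coding genes. The I-box GATAAG stood in 17.9% of members, beside 19.2% and 14.6%. CGTGCG was in 3 members, or 2.68%, beside 2.18% and 1.96%. The related CGTGTG, which overlaps a G-box that is followed by TG, was in 8.93% beside 8.99% and 6.52%. The evening element AAAATATCT stood in 1.79%, beside 3.60% and 2.82%, and TATAAA in 44.6%, beside 51.8% and 52.1%.

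**Figure D2:**
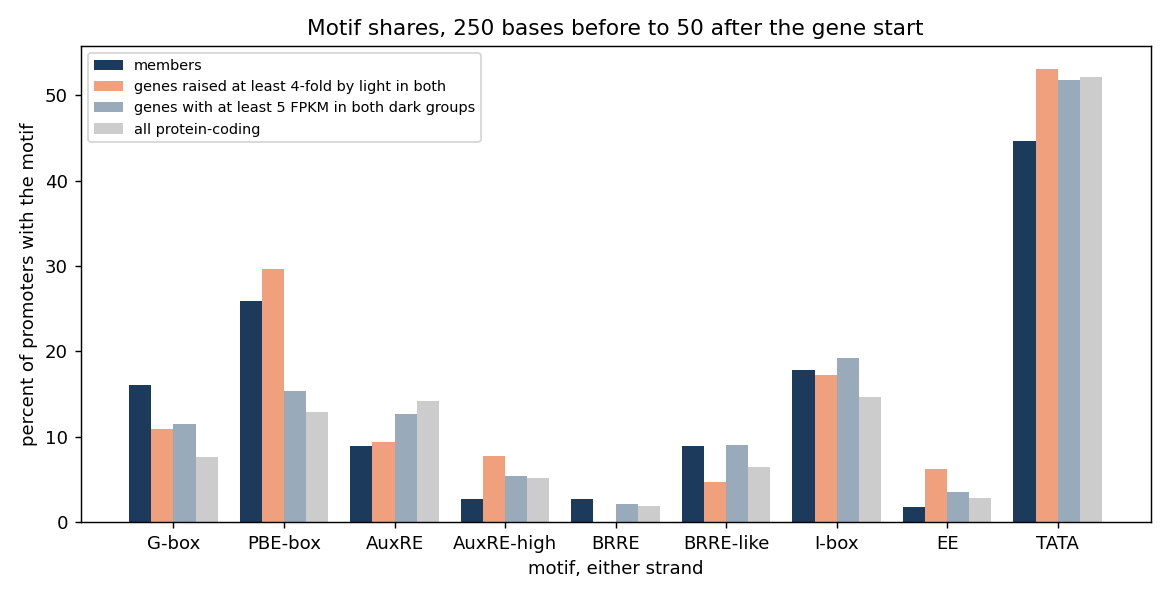
Percent of promoter windows that hold each motif on either strand, for the 112 members, the 64 genes raised by light in both genotypes, the 2614 genes above the dark minimum and 27443 protein-coding genes; bars start at 0. The G-box bar of the members is the tallest of its 4 at 16.1%, and for the PBE-box the members (25.9%) and the raised genes (29.7%) both stand above the other sets.

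Genes of the cell wall made up 18 members, a group put together by hand after the values were seen, like the other groups of this account. Their dark medians were 75.3 FPKM for Col-0 and 73.6 for the line. The median level left was 11.1% in Col-0 (0.408% to 24.4%) and 17.5% in 35S:miR396a (4.89% to 25%). None of the 18 was listed as differing between genotypes in the dark. The light means were listed as higher in 35S:miR396a for LRX2, XTH5, AT5G05965 and AT2G15880, and as lower for none. These 4 are 22.2% of the wall members, beside 27.7% of all members, 35.1% of the 815 genes above the dark minimum listed in both light tables and 42.3% of the 6223 genes with 4 means. For the dark, where none of the 18 was listed, 6.25% of all members were listed as lower and 7.14% as higher. Those dark shares were 19.6% and 3.44% of the 815 genes, and 17.6% and 13.1% of the 6223.

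XTH enzymes cut and rejoin xyloglucan, the polymer that tethers cellulose, and 3 of their genes were members. XTH17 averaged 397 FPKM in the dark and 41.5 after light in Col-0, against 269 and 46.8 in 35S:miR396a. Its transcript is 90.8% identical to that of XTH18 over its length, so reads of the pair may have been split or shared; XTH18 had 323 and 53.1 FPKM in dark and illuminated Col-0 and 192 and 112 in dark and illuminated 35S:miR396a, and was not listed as lower in the 35S:miR396a line. XTH8 averaged 146 FPKM in the dark and 31.7 after light in Col-0, against 139.6 and 16.7 in 35S:miR396a. XTH5 averaged 16.8 FPKM in the dark and 1.08 after light in Col-0, against 18.1 and 3.56 in 35S:miR396a, and was listed as higher in illuminated 35S:miR396a than in illuminated Col-0.

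Expansins loosen the wall without cutting it. EXPA11, an alpha-expansin, had dark means of 157 and 158 FPKM in Col-0 and 35S:miR396a, and light means of 16.8 and 23.1. The expansin-like gene EXLA2 was left at 22.8% of its dark level in Col-0 and 22.8% in 35S:miR396a, which was the closest match between genotypes among the wall members, although its means in 35S:miR396a (26.5 and 6.03 FPKM) were lower than in Col-0 (43.1 and 9.83). The endoglucanase genes GH9B1 and GH9B13, whose products cut beta-glucan chains, had 11% and 11.1% left in Col-0. In 35S:miR396a their remaining shares were 23.9% and 14.6%. GH9B1, one of the promoters shown, averaged 88.5 FPKM in the dark and 9.76 after light in Col-0, against 68.5 and 16.4 in 35S:miR396a. Antisense or overlapping genes lie beside several wall members, and the strand of the libraries is not given in the sources used here.

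Structural wall proteins were among the most abundant members. AGP4, which encodes an arabinogalactan protein, a heavily glycosylated proteoglycan of the cell surface, averaged 800.0 FPKM in the dark and 82.2 after light in Col-0, against 838 and 117 in 35S:miR396a. It overlaps AT5G10435 on the opposite strand over 585 bases, and reads of the 2 genes cannot be told apart without strand. AGP22, of the same class, averaged 235 FPKM in the dark and 16.3 after light in Col-0, against 169 and 29.6 in 35S:miR396a. LRX2, a leucine-rich repeat extensin that links the wall to the cell surface, had 18.8 and 1.57 FPKM in dark and illuminated Col-0 and 34.7 and 4.13 in dark and illuminated 35S:miR396a, and was listed as higher in 35S:miR396a after light. DGR2 and AT4G32460, which encode wall-located DUF642 proteins, stood at 503 and 268 FPKM in dark Col-0 and at 123 and 31 after light. The 35S:miR396a means of DGR2 were 542 and 109, and those of AT4G32460 were 276 and 35.4. The close relative DGR1, no member, had 41.3 and 6.18 FPKM in dark and illuminated Col-0 and 28.1 and 17.1 in dark and illuminated 35S:miR396a.

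The leucine-rich repeat gene AT2G15880 had the lowest remaining level of the wall members in Col-0. It averaged 23.5 FPKM in the dark and 0.096 after light in Col-0, against 19.9 and 0.973 in 35S:miR396a, or 10.1 times as much after light in 35S:miR396a as in Col-0. The pectin methylesterase inhibitor genes AT4G25260 and AT1G62770, which encode inhibitors of the enzymes that strip methyl groups from pectin, differed in depth. AT4G25260 was left at 7.69% of its dark level in Col-0 and 6.63% in 35S:miR396a, and AT1G62770 at 16.8% of its dark level in Col-0 and 25% in 35S:miR396a. AT5G05965, annotated as a cell wall protein like RBR3 and shown above with 3 G-boxes, averaged 15.5 FPKM in the dark and 1.81 after light in Col-0, against 25.1 and 4.48 in 35S:miR396a. The glycosyl hydrolase gene AT3G47010 and the hydroxyproline-rich glycoprotein gene AT1G23050 complete the group, with 13.7% and 16.6% left in Col-0.

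**Figure D3:**
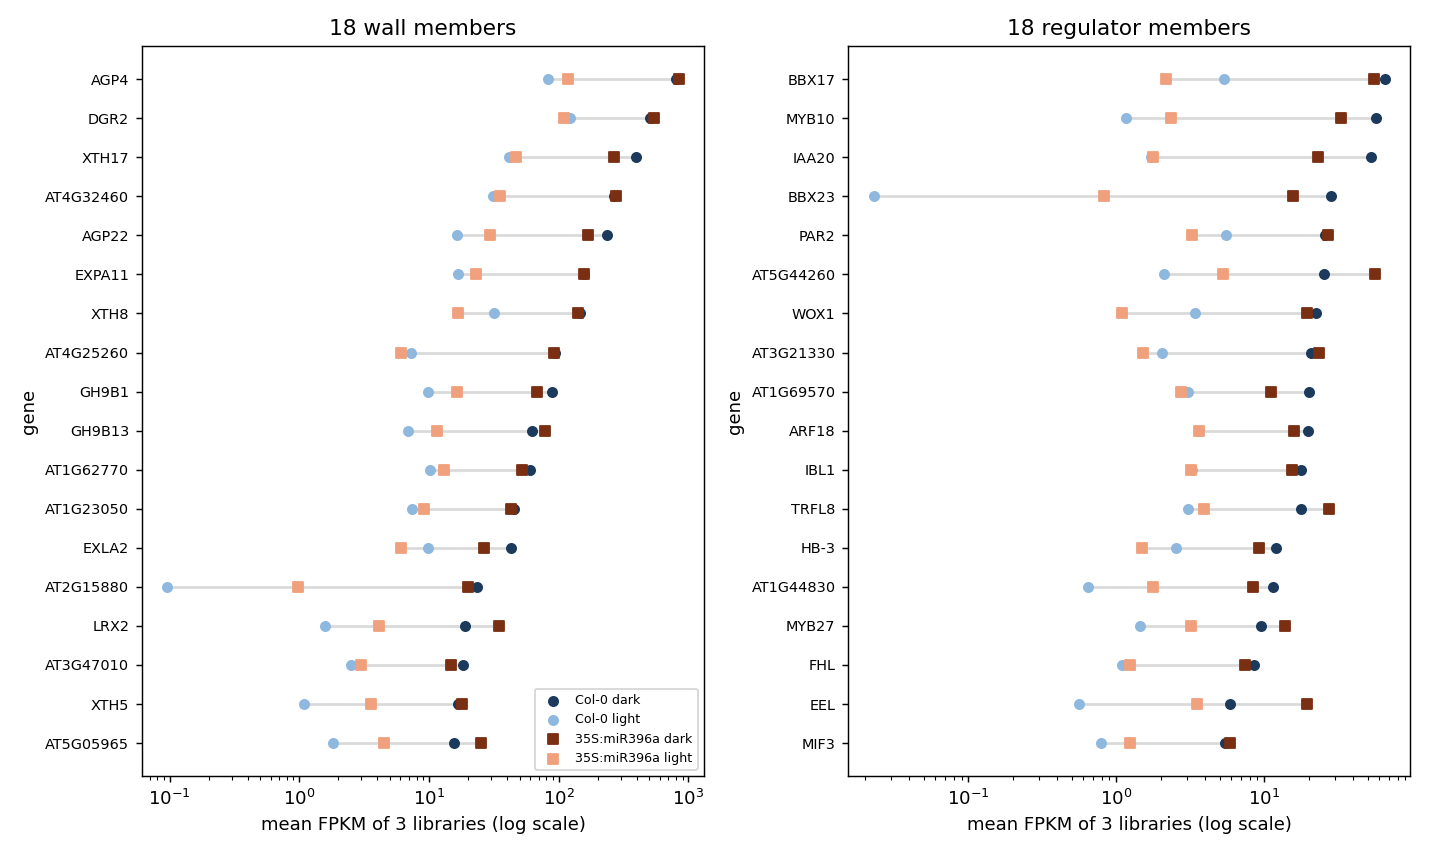
Mean FPKM of each wall member (left) and regulator member (right) in the 4 groups on a log axis; circles are Col-0, squares are 35S:miR396a, dark colours are darkness and pale colours are light, and each mark is the authors' mean of 3 libraries. The dark marks of a gene lie close together for most wall members, while BBX23 and AT2G15880 have a pale circle far to the left of the pale square.

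Regulators of transcription, another 18 members, started lower, with a median of 19.9 FPKM in dark Col-0 and none above 65.6 FPKM. After light their median was 2.06 FPKM in Col-0 and 2.27 in 35S:miR396a.

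Several of these belong to light signalling. BBX23 encodes a B-box zinc finger protein that promotes photomorphogenesis together with HY5. It averaged 28.5 FPKM in the dark and 0.023 after light in Col-0, against 15.6 and 0.823 in 35S:miR396a. Its light mean in Col-0 was the lowest fraction of a dark mean above 0 in the set, 0.0806%, against 5.27% in 35S:miR396a. A light mean that low rests on few reads and carries no error here. The means of 2 relatives were higher after light: BBX22 (annotated as LZF1) had 16.1 and 32.5 FPKM in dark and illuminated Col-0 and 8.29 and 43.7 in dark and illuminated 35S:miR396a, and BBX25 (annotated as STH) had 6.8 and 22.6 FPKM in dark and illuminated Col-0 and 2.96 and 13 in dark and illuminated 35S:miR396a. BBX22 was listed as higher after light in 35S:miR396a, and BBX25 in both genotypes. BBX17, of another group of B-box proteins, averaged 65.6 FPKM in the dark and 5.34 after light in Col-0, against 55.1 and 2.18 in 35S:miR396a, and was listed as lower in 35S:miR396a after light.

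FHL, with its homologue FHY1, carries phytochrome A into the nucleus. FHL averaged 8.53 FPKM in the dark and 1.09 after light in Col-0, against 7.42 and 1.24 in 35S:miR396a. FHY1 was more abundant in the dark and stood just outside the limit, with 38.8 and 9.89 FPKM in dark and illuminated Col-0 and 35.8 and 9.24 in dark and illuminated 35S:miR396a. PAR2 encodes a non-DNA-binding helix-loop-helix protein that restrains PIF activity and shade growth. It averaged 25.8 FPKM in the dark and 5.5 after light in Col-0, against 26.9 and 3.24 in 35S:miR396a. Its homologue PAR1 had 20.6 and 7.13 FPKM in dark and illuminated Col-0 and 36 and 4.39 in dark and illuminated 35S:miR396a, with 34.7% left in Col-0 and 12.2% in 35S:miR396a, and was therefore no member. Both PAR genes had less left in 35S:miR396a than in Col-0.

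IBL1 (listed as AT4G30410), a relative of the elongation-restraining protein IBH1, averaged 17.9 FPKM in the dark and 3.23 after light in Col-0, against 15.4 and 3.18 in 35S:miR396a. IBH1 itself had 27 and 9.27 FPKM in dark and illuminated Col-0 and 34.8 and 19.8 in dark and illuminated 35S:miR396a. The bHLH gene AT3G21330 was left at 9.73% of its dark level in Col-0 and 6.39% in 35S:miR396a.

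Of the auxin regulators, IAA20 encodes an Aux/IAA repressor without the degron that most of the family have. It averaged 52.5 FPKM in the dark and 1.72 after light in Col-0, against 23 and 1.78 in 35S:miR396a, and was listed as lower in dark 35S:miR396a than in dark Col-0, while the light means lay close together. ARF18, an auxin response factor, averaged 19.7 FPKM in the dark and 3.61 after light in Col-0, against 15.8 and 3.62 in 35S:miR396a. Homeodomain genes were represented by WOX1, known for leaf blade outgrowth, by the HD-Zip gene HB-3 and by the mini zinc finger gene MIF3, whose product binds homeodomain partners. WOX1 averaged 22.4 FPKM in the dark and 3.42 after light in Col-0, against 19.6 and 1.1 in 35S:miR396a, with the lower light mean in 35S:miR396a. HB-3 was left at 21.2% of its dark level in Col-0 and 16.3% in 35S:miR396a. MIF3, the least abundant member in dark Col-0, averaged 5.4 FPKM in the dark and 0.786 after light in Col-0, against 5.89 and 1.23 in 35S:miR396a.

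EEL encodes a bZIP factor of late seed maturation that acts on the same genes as ABI5. It averaged 5.85 FPKM in the dark and 0.56 after light in Col-0, against 19.4 and 3.53 in 35S:miR396a, and was listed as higher in 35S:miR396a in darkness and in light. It overlaps AT2G41060 on the same strand over 817 bases, so its reads may be shared. The tandem zinc finger gene AT5G44260 (TZF5) averaged 25.2 FPKM in the dark and 2.09 after light in Col-0, against 56 and 5.28 in 35S:miR396a, and was likewise listed as higher in 35S:miR396a in both conditions. MYB10 averaged 57 FPKM in the dark and 1.16 after light in Col-0, against 33.1 and 2.36 in 35S:miR396a, and MYB27 averaged 9.51 FPKM in the dark and 1.46 after light in Col-0, against 13.9 and 3.18 in 35S:miR396a. The AP2-domain gene AT1G44830, the Dof gene AT1G69570 and the telomere-repeat-factor-like gene TRFL8 were left at 5.63%, 15.3% and 17.1% in Col-0. In 35S:miR396a the same 3 genes were left at 20.9%, 24.6% and 14.3%.

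Lipid and cuticle genes numbered 15. The group's median level left was 8.78% in Col-0 and 18.4% in 35S:miR396a, and 12 of the 15 had less left in Col-0. Of the 111 members above 0 in all groups, 64.9% had less left in Col-0, as had 52.6% of 2633 genes above the dark minimum. The rule used the members' ratios, the group was put together after the values were seen, and no test was made.

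Cutin, suberin and wax form the barriers on and in the wall. FAR1, fatty acid reductase 1, which makes the fatty alcohols of suberin, averaged 247 FPKM in the dark and 10.8 after light in Col-0, against 189 and 14.9 in 35S:miR396a. It overlaps AT5G22505 on the opposite strand over 1310 bases. GPAT3, an acyltransferase of glycerolipid synthesis, averaged 111 FPKM in the dark and 18.8 after light in Col-0, against 48.8 and 10.4 in 35S:miR396a, and was listed as lower in dark 35S:miR396a. CYP86A4, a fatty acid hydroxylase of cutin synthesis, was left at 11.4% of its dark level in Col-0 and 20.7% in 35S:miR396a. KCS12, a condensing enzyme that elongates fatty acids, averaged 19.3 FPKM in the dark and 3.76 after light in Col-0, against 32.3 and 5.95 in 35S:miR396a. CYP96A5, a cytochrome P450, averaged 10.5 FPKM in the dark and 0.016 after light in Col-0, against 13.1 and 1.17 in 35S:miR396a, and its light means were the furthest apart of any member, 73.1-fold, with the lower one resting on few reads. ABCG15, a transporter of a family that exports lipids, was left at 12.7% of its dark level in Col-0 and 22.1% in 35S:miR396a.

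Desaturase genes ADS1 and ADS4, whose products put a double bond into fatty acids, averaged 83.4 and 15.8 FPKM in dark Col-0 and 4.28 and 1.28 after light. In 35S:miR396a ADS1 had 89.3 and 6.71 FPKM, and ADS4 had 14.8 and 2.42. The lipid-transfer genes AT4G12520 and AT5G46900 were abundant, at 365 and 342 FPKM in dark Col-0 and 32.1 and 45.5 after light. Each has a near copy, AT4G12510 at 93.5% and AT5G46890 at 94.5% identity over the aligned part, and their levels are uncertain to that extent.

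Proteins of oil bodies, the lipid stores of seeds, showed differing members of 1 family. OLEO3, an oleosin that coats oil bodies, averaged 83.5 FPKM in the dark and 4.21 after light in Col-0, against 32.6 and 6.22 in 35S:miR396a, and was listed as lower in dark 35S:miR396a. The seed oleosins OLEO1 and OLEO2 were low in Col-0 and higher after light in the line: OLEO1 had 0.776 and 1.49 FPKM in dark and illuminated Col-0 and 2.39 and 11.2 in dark and illuminated 35S:miR396a, and OLEO2 had 0.593 and 0.916 FPKM in dark and illuminated Col-0 and 4.42 and 12.3 in dark and illuminated 35S:miR396a. Both were listed as higher after light in 35S:miR396a. HSD5, related to the steroleosins of oil bodies, averaged 6.49 FPKM in the dark and 0.213 after light in Col-0, against 5.17 and 1.13 in 35S:miR396a. AT2G47780, a rubber elongation factor protein, averaged 234 FPKM in the dark and 6.84 after light in Col-0, against 193 and 27.4 in 35S:miR396a, a light difference of 4.0-fold between genotypes. The lipase-like gene AT2G42990 was left at 11.6% of its dark level in Col-0 and 8.78% in 35S:miR396a, and the oxysterol-binding-related gene ORP4C at 13.8% of its dark level in Col-0 and 9.36% in 35S:miR396a.

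Hormone and peptide genes numbered 5. GASA4 encodes a small cysteine-rich peptide whose gene responds to gibberellin. It averaged 2389.5 FPKM in the dark and 468 after light in Col-0, against 5807 and 971 in 35S:miR396a, the second highest dark level of the set in Col-0 and the highest in the line. It was listed as higher in 35S:miR396a in darkness and in light. Within its family, GASA1 had 883 and 404 FPKM in dark and illuminated Col-0 and 912 and 864 in dark and illuminated 35S:miR396a, and GASA6 had 97 and 299 FPKM in dark and illuminated Col-0 and 326 and 48.4 in dark and illuminated 35S:miR396a. GASA6 was listed as higher after light in Col-0 and as lower after light in 35S:miR396a, so 3 family members had 3 patterns.

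RGF6, also known as GOLVEN1, encodes a secreted peptide that acts in gravitropism. It averaged 112 FPKM in the dark and 17.9 after light in Col-0, against 120.4 and 17.9 in 35S:miR396a, and overlaps AT4G16510 on the opposite strand over 673 bases. FLP1 is a homologue of FPF1, a small protein that promotes flowering. It averaged 172 FPKM in the dark and 4.43 after light in Col-0, against 265 and 43.5 in 35S:miR396a, which left 2.58% in Col-0 and 16.4% in 35S:miR396a. RTFL21, a peptide of the DEVIL and ROTUNDIFOLIA family that limits cell proliferation, was left at 11.5% of its dark level in Col-0 and 15.8% in 35S:miR396a. ACS5, a synthase of the ethylene precursor ACC that is known to act in etiolated seedlings, averaged 8.83 FPKM in the dark and 0.763 after light in Col-0, against 7.62 and 0.583 in 35S:miR396a.

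Kinase and calcium genes numbered 9. CML30, a calmodulin-like calcium sensor, averaged 6.84 FPKM in the dark wild type, 6.0 in the dark line, and was listed at 0 in both light groups. It overlaps AT2G15690 on the opposite strand over 647 bases. SNRK2.5, a kinase of osmotic stress signalling, averaged 70.3 FPKM in the dark and 1.69 after light in Col-0, against 85.4 and 6.13 in 35S:miR396a. WNK3, of the plant WNK kinases, had the reverse order after light, with 11.8 and 2.02 FPKM in dark and illuminated Col-0 and 13.2 and 0.85 in dark and illuminated 35S:miR396a. FLS2, the receptor kinase for bacterial flagellin, averaged 13.3 FPKM in the dark and 3.04 after light in Col-0, against 19.1 and 2.6 in 35S:miR396a. The C2-domain gene AT4G11610 averaged 53.3 FPKM in the dark and 0.52 after light in Col-0, against 48.8 and 2.48 in 35S:miR396a. Of the group, SNRK2.5 and AT4G11610 were listed as higher in the illuminated line, and WNK3 and AT3G24715 as lower. The genes AT1G62480 and AT1G12080, annotated as encoding vacuolar calcium-binding proteins, were the most abundant of the group with 824 and 809 FPKM in dark Col-0 and 125 and 65.2 after light. Their levels in the line were 694 and 620.1 FPKM in the dark and 149 and 72.4 after light. The calmodulin-binding gene AT2G24300 and the kinase gene AT3G24715 were left at 15.1% and 22% in Col-0.

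Both cytoskeleton members concern microtubules, which guide the direction of wall deposition. TUB1, a beta-tubulin, averaged 132 FPKM in the dark and 14.5 after light in Col-0, against 91.7 and 18.3 in 35S:miR396a, while TUB5 had 222 and 169 FPKM in dark and illuminated Col-0 and 175 and 53.7 in dark and illuminated 35S:miR396a and was listed as lower after light in 35S:miR396a alone. MDP40, a microtubule-destabilising protein known from hypocotyl elongation, averaged 5.51 FPKM in the dark and 0.453 after light in Col-0, against 5.26 and 0.826 in 35S:miR396a. The 6 transport members were left at 8.29% to 20.2% in Col-0 and 10.3% to 23.5% in 35S:miR396a. AT1G52190 (NPF1.2, a nitrate transporter) averaged 97 FPKM in the dark and 19.6 after light in Col-0, against 126 and 13 in 35S:miR396a. ALS3, which acts in aluminium tolerance, averaged 32.3 FPKM in the dark and 3.3 after light in Col-0, against 20.6 and 4.84 in 35S:miR396a. UMAMIT4, of a family of amino acid transporters, was left at 12.1% of its dark level in Col-0 and 15.4% in 35S:miR396a, and AT3G05150 and AT5G24580 at 9.18% and 8.29% in the wild type. The MATE efflux gene AT4G23030 was listed as higher in illuminated 35S:miR396a, and the other 5 were listed in neither genotype table.

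The 9 metabolism members included the most abundant member in dark Col-0. CA2, a carbonic anhydrase that converts carbon dioxide and bicarbonate, averaged 4965 FPKM in the dark and 1168 after light in Col-0, against 2847 and 387 in 35S:miR396a. Its relative CA1, the main chloroplast enzyme, had 180.1 and 1787 FPKM in dark and illuminated Col-0 and 171 and 179 in dark and illuminated 35S:miR396a. In Col-0 CA2 had the higher mean of the 2 genes in the dark and CA1 after light, and CA1 was listed as higher in that genotype, with 9.92 times its dark mean. In 35S:miR396a CA1 was not listed.

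LIL3:2 in the chloroplast membrane group also differed from its homologue in Col-0. LIL3 proteins are thylakoid proteins that anchor geranylgeranyl reductase, an enzyme of chlorophyll and tocopherol synthesis. LIL3:2 averaged 729 FPKM in the dark and 156 after light in Col-0, against 348 and 71.1 in 35S:miR396a, and was listed as lower in 35S:miR396a in darkness and in light. LIL3:1 had 34.7 and 94.5 FPKM in dark and illuminated Col-0 and 27.6 and 17.7 in dark and illuminated 35S:miR396a, and was listed as higher after light in Col-0. COR413IM1, an inner envelope protein of the cold response, was left at 11.3% of its dark level in Col-0 and 14.7% in 35S:miR396a.

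SEN1, also called DIN1, is a known marker of darkness and senescence, and BCAT-2 encodes a transaminase of branched-chain amino acids. SEN1 averaged 503 FPKM in the dark and 22.1 after light in Col-0, against 255 and 39.9 in 35S:miR396a, and BCAT-2 averaged 132 FPKM in the dark and 5.25 after light in Col-0, against 118 and 23.3 in 35S:miR396a. Both kept a larger share of their dark level in the line, and BCAT-2 was listed as higher there after light. PDC3, a pyruvate decarboxylase of fermentation, averaged 14.9 FPKM in the dark and 1.15 after light in Col-0, against 12.2 and 1.57 in 35S:miR396a, with a near copy AT5G01320 at 92.4% identity. PDC2 was listed as higher after light in 35S:miR396a, with 17.8 and 31.8 FPKM in dark and illuminated Col-0 and 14 and 137 in dark and illuminated 35S:miR396a. The berberine-type oxidase gene AT5G44440 averaged 918 FPKM in the dark and 17.7 after light in Col-0, against 292 and 14.9 in 35S:miR396a, and was listed as lower in the line in darkness but not after light. AT5G02540, a Rossmann-fold dehydrogenase gene, averaged 63.9 FPKM in the dark and 2.55 after light in Col-0, against 261 and 6.96 in 35S:miR396a, and AT5G02580, which lies 3 protein-coding genes away, averaged 25.8 FPKM in the dark and 1.79 after light in Col-0, against 54.8 and 4.44 in 35S:miR396a. Both of the neighbours were listed as higher in 35S:miR396a in darkness and in light. The glycosyltransferase gene AT1G01390 averaged 47.9 FPKM in the dark and 9.27 after light in Col-0, against 28.6 and 1.89 in 35S:miR396a, and the carboxypeptidase-like gene scpl40 was left at 16.2% and 17.5% in the wild type and the line.

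The last 28 members were uncharacterised or fitted no group. Their dark Col-0 levels ran from 5.74 to 576.5 FPKM. The F-box gene AT1G73120 was the highest, and averaged 576 FPKM in the dark and 21.8 after light in Col-0, against 258 and 29.8 in 35S:miR396a. The F-box gene AT1G20790 averaged 9.63 FPKM in the dark and 0.016 after light in Col-0, against 13.4 and 0.403 in 35S:miR396a, and the ARM-repeat gene AT3G18530 averaged 40.5 FPKM in the dark and 0.436 after light in Col-0, against 37.5 and 2.23 in 35S:miR396a. DRT100, a leucine-rich repeat gene, averaged 337 FPKM in the dark and 79.9 after light in Col-0, against 322 and 48.6 in 35S:miR396a. CYS2, an inhibitor of cysteine proteases, was left at 5.8% of its dark level in Col-0 and 16.2% in 35S:miR396a. AT1G15840, of unknown function, had 11.6 and 0.233 FPKM in dark and illuminated Col-0 and 15.2 and 0.826 in dark and illuminated 35S:miR396a.

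Genotype was not part of the rule, although the same 4 means entered both. In the dark, 7 members were listed as lower and 8 as higher in 35S:miR396a, 6.25% and 7.14% of the members. Among all 6223 genes the shares were 17.6% and 13.1%. Genes enter that background by being listed somewhere, so a second one was taken: of the 815 genes above the dark minimum that are listed in both light tables, as all members are, 19.6% were lower and 3.44% were higher in the dark. After light, 11 members were listed as lower and 31 as higher, 9.82% and 27.7%. The shares were 33.5% and 42.3% of the 6223 genes, and 16.8% and 35.1% of the 815. The members' shares stood below both backgrounds for the lower genes in either condition and for the higher genes in the light, and between the backgrounds for the higher genes in the dark. The second background takes listings in either direction in each light table, whereas every member was lowered at least 4-fold in both genotypes. The rule thus bears on the members' shares, and nothing is read from their place beside the backgrounds. No test was made of these shares. In neither table were 64 of the 112 listed. The matching count was not made over either background, so nothing is read from it.

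In the dark, the largest ratio was that of AT5G50335, an uncharacterised gene, with 6.38 FPKM in the dark and 1.56 after light in Col-0, against 49 and 3.44 in 35S:miR396a. The authors' deposited table gave its log2 fold of 35S:miR396a over Col-0 as 2.95 in the dark and 1.12 in the light. Next came AT5G02540 with 4.09 times the Col-0 mean, AT4G35720 (a DUF241 gene) with 3.4 times, EEL with 3.31 times, AT5G14360 (a ubiquitin-like gene) with 2.59 times and GASA4 with 2.43 times. On the lower side stood AT5G44440, with 3.15 times as much in Col-0, OLEO3 with 2.56 times, AT2G20835 with 2.44 times and IAA20 with 2.28 times. Of the 8 members listed as higher in the dark, 7 were listed as higher in the light as well, and AT5G14360 was not. Of the 7 listed as lower in the dark, LIL3:2 and AT2G20835 were also listed as lower in the light. No member was listed in opposite directions in the 2 conditions. These overlaps were not counted over either background, so nothing is read from them.

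After light the means of the genotypes lay further apart. The line had 73.1 times the Col-0 mean for CYP96A5, 35.8 times for BBX23, 25.2 times for AT1G20790 and 10.1 times for AT2G15880, all with Col-0 means under 0.1 FPKM. Among members with a Col-0 light mean above 0.1 FPKM, FLP1 had 9.81 times, EEL 6.3 times, HSD5 5.29 times, AT3G54510 6.68 times and AT3G18530 5.11 times. Of these, FLP1 alone had a Col-0 light mean over 1 FPKM (4.43). The others stood at 0.56 (EEL), 0.213 (HSD5), 0.206 (AT3G54510) and 0.436 FPKM (AT3G18530), so their ratios also rest on low means. In the other direction AT5G57760, an uncharacterised gene, averaged 61.2 FPKM in the dark and 7.39 after light in Col-0, against 44.9 and 1.34 in 35S:miR396a, so Col-0 had 5.5 times the level of the line. For AT1G01390 that ratio was 4.9, and for CA2 it was 3.02.

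**Figure D4:**
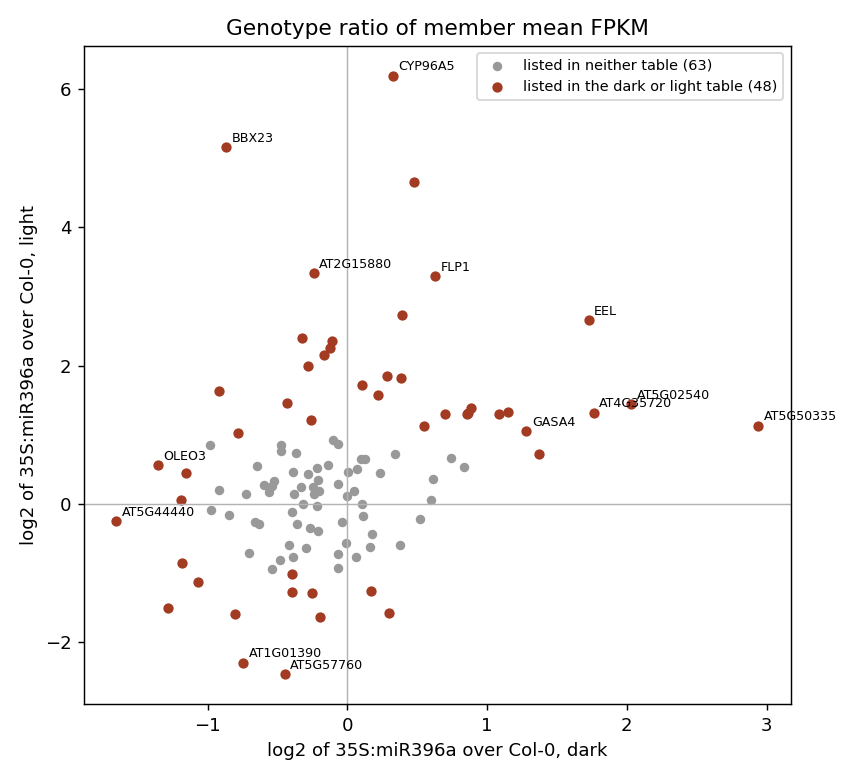
Log2 of the 35S:miR396a mean over the Col-0 mean in the light against the same ratio in the dark, 1 point per member, for the 111 members above 0 in all groups; red points are listed by the authors in at least 1 of the 2 genotype tables. Points spread over a wider range along the light axis, up to CYP96A5 and BBX23, than along the dark axis, where AT5G50335 lies furthest to the right.

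Setting the genotypes' light responses side by side, 72 of the 111 members above 0 in all groups, or 64.9%, had less left in Col-0, and 39 had less left in 35S:miR396a. Of the 2633 genes above the dark minimum, 52.6% had the lower light to dark ratio in Col-0. The difference of the log2 ratios, 35S:miR396a minus Col-0, had a median of 0.44 over members and 0.22 over those genes. The rule cut both ratios of the members and neither ratio of the wider set, so the sets are not alike. Above the dark minimum, 403 genes met the light limit in Col-0 and 257 in 35S:miR396a. Nothing about genotype is read from the members' split. The difference of the log2 ratios passed 1 in size for 30 members with less left in Col-0 and for 7 with less left in 35S:miR396a. The same count was not made over the 2633 genes. These 7 were BBX17, WOX1, WNK3, AT1G01390, AT5G50335, AT5G57760 and AT5G62280. AT5G50335 was among them although its light mean was the higher one in the line, with 24.5% left in Col-0 and 7.01% in 35S:miR396a. Some differences past 1 rest on light means under 1 FPKM, such as those of BBX23 and HSD5 in Col-0 and of WNK3 in 35S:miR396a.

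**Figure D5:**
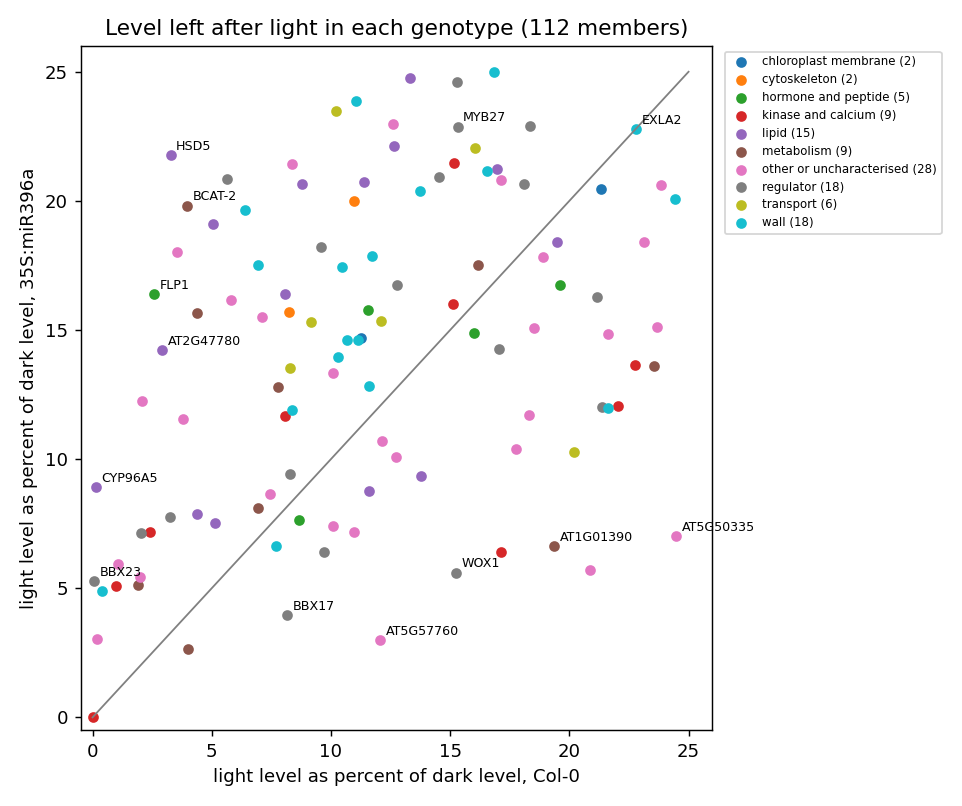
Light mean as a percent of the dark mean in 35S:miR396a against Col-0 for the 112 members, coloured by role group with the group size in brackets; the line marks equal percentages, and the rule keeps every point at or under 25 on both axes. Of the points, 72 lie above the line (less left in Col-0), with HSD5, BCAT-2, FLP1 and AT2G47780 far above it and AT5G50335, AT1G01390 and AT5G57760 far below.

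The wider pathways were counted from lists of symbols and families, over the genes found in any table. Of all 11417 such genes, 7.51% were listed as lower after light in both genotypes and 4.55% as higher in both. Of 15 named SAUR growth genes, 10 (66.7%) were listed as lower in both and none as higher in either, and none was a member. Of 13 Aux/IAA genes, 4 (30.8%) were lower in both, IAA20 being the member. Of 20 expansin genes, 7 (35%) were lower in both and none was higher in both. Of 25 xyloglucan enzyme genes, 6 (24%) were lower and 3 (12%) were higher in both. Structural wall and arabinogalactan genes gave 10 lower (15.2%) and 0 higher in both among 66. Homeodomain genes gave 10 lower (18.5%) and 0 higher in both among 54. Glycosyltransferase genes gave 0 lower and 6 higher (13.6%) among 44. Lipid transfer, cuticle and fatty acid genes, with 5 members, gave 12 lower (14.6%) and 11 higher (13.4%) in both among 82. PIFs and their early targets, with 4 members, gave 11 lower (22.45%) and 2 higher (4.08%) among 49. Ethylene genes gave 11 lower (21.6%) and 1 higher (1.96%) among 51. Auxin synthesis and response genes gave 7 lower (38.9%) and 0 higher among 18. Other lists had a lower share under that of all genes. Gibberellin genes gave 1 lower (4.17%) and 2 higher (8.33%) in both among 24. Growth-regulating bHLH genes gave 1 lower (5%) and 1 higher (5%) among 20. Cellulose and hemicellulose synthesis genes gave 2 lower (5.13%) and 2 higher (5.13%) among 39. Cytokinin and other hormone genes gave 2 lower (6.45%) and 2 higher (6.45%) among 31. The list of MYB, NAC, TCP, zinc finger and other factors gave 20 lower (6.58%) and 18 higher (5.92%) among 304. Some further lists are not described here. None of these shares was tested.

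The touch, wound, oxidative and defence list held 204 genes in any table. Of these, 95 (46.6%) were listed as lower after light in Col-0 and 14 (6.86%) in 35S:miR396a, beside 26.1% and 23.1% of all genes in any table. As higher after light, 19 (9.31%) were listed in Col-0 and 118 (57.8%) in 35S:miR396a, beside 17.0% and 20.6%. Of the list, 10 (4.9%) were lower in both genotypes, and CML30 and COR413IM1 were the members. The list of dark-induced and carbon starvation genes, which holds SEN1 and BCAT-2, had 61 genes in any table, of which 7 (11.5%) were lower and 6 (9.84%) were higher in both.

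The members' genes were described by structure and place. Their median coding length was 922.5 bases, beside 984 for genes above the dark minimum and 1035 for all protein-coding genes. Genes with 1 exon made up 28.6% of members, 20% of the genes above the dark minimum and 20.4% of all. A location note was available for 57 members, and 25 of them (43.9%) named the endomembrane system, the wall or the extracellular space, beside 25.5% of 1776 noted genes above the dark minimum and 27.6% of 15810 noted protein-coding genes. The chloroplast was named for 11 members (19.3%), beside 34.3% and 16.7%. Members lay on all 5 chromosomes, 30, 15, 19, 17 and 31 of them in order. AT1G23050 and MDP40 are direct neighbours, and LRX2 and AT1G62480 have 1 protein-coding gene between them. Another gene overlaps 32 of the members, on the opposite strand for 29. The opposite-strand overlaps ran from 2 bases (AT1G01390) to 1310 bases (FAR1). Strand was not known, so reads within such an overlap cannot be assigned to 1 gene.

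Markers of other tissues were read in the same means. Of 4 cotyledon mesophyll markers, all with 4 means, the summed level was 5851 FPKM in dark Col-0, 19234 in illuminated Col-0, 4838 in dark 35S:miR396a and 3366 in illuminated 35S:miR396a. The markers went different ways in 35S:miR396a. RBCS1A had 4094 FPKM in the dark and 1739 after light there. LHCB1.1 (88 and 532), LHCB2.1 (250 and 445) and CAB3 (406 and 650) were higher after light in that line. Whether these transcripts came from cotyledons or from hypocotyl cells cannot be told apart in these samples. The 6 seed reserve markers, which include OLEO1 and OLEO2 above, summed to 3.99, 13.1, 21.8 and 99.7 FPKM in the same order. The 3 guard cell markers summed to 13.3, 11.2, 14.3 and 2.57 FPKM. Of 4 root markers PHT1;1 alone had 4 means, 28.7, 21, 62.5 and 62.9 FPKM, and of 4 root hair markers LRX1 alone had them, 1.29, 1.74, 4.21 and 3.54 FPKM. The root marker PYK10 had no Col-0 mean, and stood at 3007 FPKM in dark 35S:miR396a and 6636 in illuminated 35S:miR396a. Of 6 shoot apex markers 5 were in some table, and none of the 5 xylem markers was in any. Of the lists with summed means, none was lower after light in both genotypes by the 4-fold limit that chose the members. The root and root hair sums rest on 1 gene each, and the shoot apex sum on 2 genes with at most 1.69 FPKM together. The xylem list had no values, so nothing is read for any of these lists. The part of the marker lists in the members' levels was not tested.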

How the data were processed

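RNA-seq libraries of 4 groups of 3 were aligned to TAIR10 by HISAT and Bowtie2, per the submitters' processing notes; versions, strand and depth: not given in the sources used here. Each of the 6 pairwise tables holds the authors' mean FPKM of both groups, so no SD or n of a mean could be computed. Per the file headers, the deposited log2 fold, p-value and q-value came from DEGseq, whereas the design text names NOISeq. Each table lists called genes (log2 fold beyond 1 in size, q-value under 0.001), and a group's mean was taken from any table that lists the gene; the tables disagreed for 0 genes.

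The members, gene lists and role groups were chosen with earlier results of these data known, the role groups after the values were seen. No test was made. Named genes were the members of the lists with a known role, the 10 highest in dark Col-0, the 10 lowest light to dark ratios, the 10 largest genotype ratios in each condition and the 3 genes on each side of the limits; relatives of members, and further members described within their role group, were chosen after their values were seen. The listing in the genotype tables was set beside all genes with 4 means, and, a choice made after seeing the data, beside genes listed in both light tables in either direction. Positions, promoters and symbols came from RefSeq TAIR10.1 for all 112 members. Near copies were found with BLAST 2.17.0 (at least 90% identity over at least 30% of the transcript). Tables were handled in Python 3.11.15 with pandas 2.3.3 and numpy 2.4.6, and drawn with matplotlib 3.10.9.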

Additional observations from a re-analysis of the deposited data

How the results depend on the processing

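The number of members followed the limits: it was 74 with a light to dark limit of 0.2 and 170 with 0.33, and it stayed between 91 and 147 with a dark minimum of 10 or 2 FPKM, with the deposited fold in place of the FPKM ratio (110) or with the left-out genes put back (118). The median log2 ratio of the members ran from -3.18 to -2.73 in Col-0 and from -2.77 to -2.48 in 35S:miR396a over pseudocounts of 0.1 and 1 FPKM, the deposited fold and a dark minimum of 10 FPKM. At a fold of 4 or more in place of 2, members listed as lower in 35S:miR396a numbered 0 in the dark and 2 in the light, and those listed as higher numbered 2 and 12. With a dark minimum of 10 FPKM, 5 members were listed as higher in the dark. With promoters of 1000 bases before the start, a window chosen after seeing the data, a PBE-box stood in 64.3% of members, 46.9% of the raised genes and 43.4% of genes above the dark minimum, so the members' share passed that of the raised genes, unlike in the 250-base window, and a G-box stood in 26.8%, 18.8% and 21.1%. No paired analysis was possible because the tables used here hold group means, and for the same reason leaving out single libraries was not run. Means under 1 FPKM after light, which 17 members had in Col-0 and 13 in 35S:miR396a, make the ratios of those members the least certain.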
